A study of Danio rerio with 14 samples.

Results

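New, solitary sites without CTCF were the largest of 5 classes among the cohesin sites listed in zebrafish embryos at the end of gastrulation. The other classes were new clustered sites without CTCF, new sites with CTCF, and sites already listed earlier with or without CTCF. This rank held when solitary meant no neighbour within 10 kb, and not when it meant none within 20 kb. The new solitary sites without CTCF are peaks of Rad21, a cohesin subunit, that were listed at 10 hours post fertilisation (hpf). They overlapped no Rad21 peak of 4.5 hpf by 1 bp or more and no CTCF peak of 10 hpf. No other 10 hpf Rad21 peak lay within 10 kb of them, measured end to start. Of the 18075 Rad21 peaks of 10 hpf on chromosomes 1 to 25, 8523, or 47.2%, met all of these conditions. The sites were chosen by the called positions in these 3 lists, so their counts and distances are a description, and none was tested.

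The peaks come from chromatin immunoprecipitation followed by sequencing (ChIP-seq) on pooled whole embryos of the AB/PS strain. Rad21 was precipitated at 2.5, 4.5 and 10 hpf and CTCF at 10 hpf, each with a custom-made antibody, and every stage had an input control without antibody. The 14 samples form 7 groups of 2, and each member of a group came from its own collection, a pool of 2000 embryos at 2.5 hpf and of 1000 at the other stages. All embryos carried the same strain background with no mutation or treatment named in the labels, and a whole embryo at 10 hpf mixes every cell type it holds, so a site bound weakly in all cells and a site bound strongly in few cannot be told apart. The deposited data are a single peak list for each stage and antibody, so no value has a spread between replicates. The 10 hpf Rad21 list was called from 13260105 tags, the 4.5 hpf list from 14255160 and the CTCF list from 28291282, per the file headers. The share of tags in peaks was 3.38% for Rad21 at 10 hpf and 1.03% in each of the other two of these lists. Absence of a site from a list means that it was not called there. All positions are on the Zv9 build.

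Cohesin is a ring-shaped complex of Smc1, Smc3, Rad21 and a Stag subunit that holds sister chromatids together and also extrudes loops of chromatin. In vertebrates it is loaded by Nipbl and Mau2, it slides along the fibre, and it is known to halt where the zinc finger protein CTCF sits on its motif. Cohesin is also found at active enhancers and promoters that lack CTCF. In zebrafish zygotic transcription starts in earnest between the earliest stage measured here and the middle one, and gastrulation ends at the last.

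The 3 conditions cut the list to different extents. Of the 18075 peaks, 15129 (83.7%) overlapped no 4.5 hpf Rad21 peak, 14684 (81.2%) overlapped no CTCF peak, and 12480 (69.0%) overlapped neither. The 4.5 hpf Rad21 list held only 7144 peaks and the CTCF list 14079. Most 10 hpf peaks would therefore overlap no 4.5 hpf peak even if every 4.5 hpf site had lasted. Having no neighbour within 10 kb was met by 68.3% of all 10 hpf Rad21 peaks and by 68.3% of the 12480, so peaks at neither list stood alone as often as Rad21 peaks in general. The other 3957 of the 12480 had a neighbour and are called the clustered new sites below. Values at the edge of the 10 kb limit were close to each other. Just inside lay the pair chr1:16405298-16405486 and chr1:16415490-16415678, each other's nearest neighbours at 10.003 kb, and chr3:26907352-26907540, with its neighbour at 10.005 kb. Just outside lay chr5:68388325-68388513, chr23:33047987-33048175 and chr17:28792458-28792646, each with a neighbour at exactly 10 kb.

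Solitary sites were scarce at the top of the list and made up most of its bottom. The deposited score is the same for every peak, but the rows form 152 successive runs sorted by chromosome and then by position. Rows tied in the value that ordered the list would form such runs. A run was ended wherever that order broke, so a short run, as at the start of the list, need not hold tied peaks. The largest run held 1648 peaks, and place within so long a run follows the chromosome and was not read as strength. The files do not name the value that ordered the runs. The median place of the solitary sites was 11366 (quartiles 6873 and 14955), against 9038 for all 18075 peaks and 9730 for the clustered new sites. With each peak put at the middle of its run, the medians were 11239, 8999.5 and 9693.

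Counted over whole runs, the share of solitary sites rose along the list. Among the first 527 peaks 29 were solitary sites, or 5.50% (exact 95% binomial interval 3.72 to 7.81). Among places 7446 to 8684 they were 44.1% (41.3 to 46.9), and among the last 1121 peaks 821 were solitary sites, or 73.2% (70.5 to 75.8). Intervals cover counting error only, and neighbouring peaks are not independent. Only 121 solitary sites, or 1.42%, stood among the first 1000 peaks, which hold 5.53% of the list, and 31.3% of them stood in the last 5 runs, which hold 21.9%. The overlap with 4.5 hpf Rad21 ran the opposite way. Of the first 527 peaks 81.8% lay at a 4.5 hpf Rad21 peak, and of the last 1121 peaks 2.41% did. Part of this opposite course is fixed by the definition, because a peak at a 4.5 hpf Rad21 peak cannot be a solitary site. Standing alone also grew more frequent among new peaks without CTCF, from 52.7% of 55 in the first group of runs to 81.0% of 1013 in the last. The peak calling required 4-fold signal over the surrounding 10000 bp, and this filter removed 1351 candidate 10 hpf Rad21 peaks. It works against peaks beside strong signal, at the scale of the 10 kb limit. Its part in this rise, and in the distances by place given below, was not tested.

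**Figure D1:**
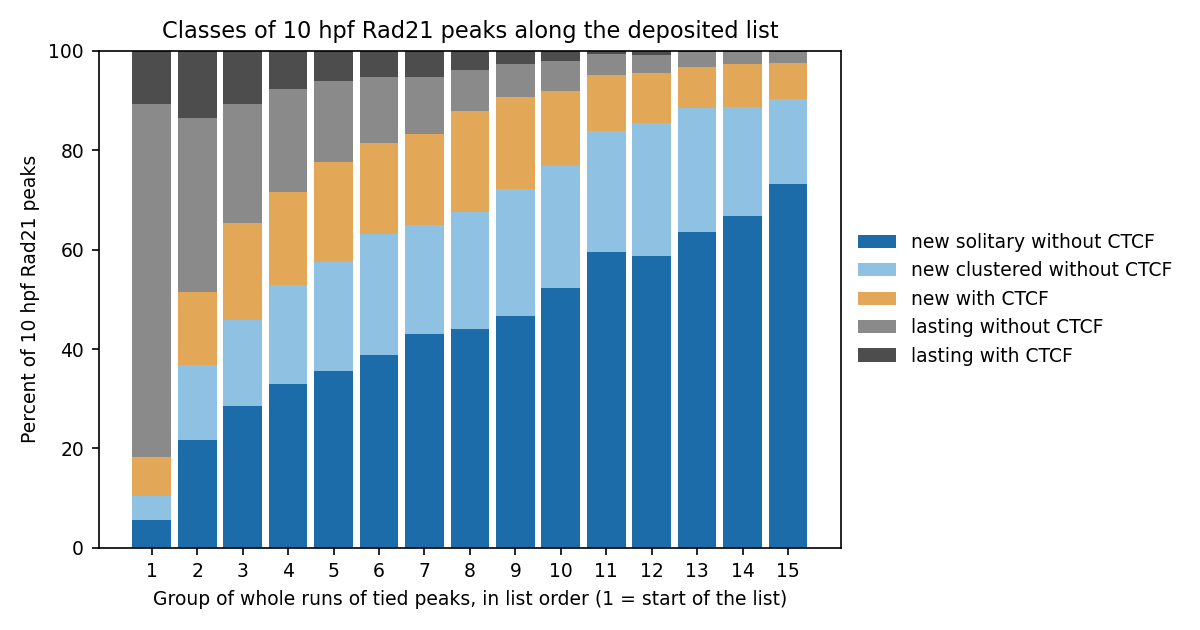
Percent of 10 hpf Rad21 peaks in each of 5 classes (y axis) in 15 groups of whole runs, from the start of the deposited list to its end (x axis). The dark blue part, the solitary sites, grows from 5.50% of the first group to 73.2% of the last, while the grey parts, peaks already listed at 4.5 hpf, shrink.

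A few solitary sites stood high in the list all the same. The first was chr18:21732109-21732297, at place 19, with the nearest CTCF peak 9.452 kb away, the nearest 4.5 hpf Rad21 peak 74.2 kb away and the nearest other 10 hpf Rad21 peak 74.2 kb away. Next came chr7:22326609-22326797, at place 140, whose surroundings were emptier of CTCF. No CTCF peak and no 4.5 hpf Rad21 peak had its centre within 100 kb of it, while 6 other 10 hpf Rad21 peaks did. At place 154 stood chr13:10638395-10638583, with a Rad21 neighbour at 13.0 kb and CTCF at 81.2 kb. The site chr19:36874836-36875024, at place 201, had a Rad21 neighbour at 27.8 kb. The site chr1:47708392-47708580, at place 235, lay 5.13 kb from a 4.5 hpf Rad21 peak and had 5 such peaks within 100 kb. The site chr2:5385018-5385206 followed at place 262. In the remaining part of the first 12 were chr23:19230323-19230511 (place 272), chr18:32384121-32384309 (place 286), chr24:9026804-9026992 (place 311), chr16:54908352-54908540 (place 332), chr19:31932721-31932909 (place 333) and chr4:7383215-7383403 (place 337).

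These 12 sites lay on 10 chromosomes, at 5.16 to 114 kb from CTCF and 11.7 to 74.2 kb from the next Rad21 peak. A CTCF peak lay within 10 kb of 3 of them and a 4.5 hpf Rad21 peak within 10 kb of 2. For 3 of them, on chromosomes 23, 16 and 19 at places 272, 332 and 333, the nearest Rad21 neighbour was a new peak that itself overlapped CTCF, at 14.4, 24.1 and 17.3 kb. For 5 of the 12 it was another solitary site. At the other end of the list the last 3 solitary sites were chr20:51446819-51447007, chr24:15166996-15167184 and chr6:2142568-2142756, at places 18071, 18072 and 18075. Their nearest Rad21 neighbours were 72.3, 90.9 and 66.5 kb away.

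Solitary sites at the end of the list lay somewhat farther from other Rad21 sites than those at its start. Over the first 2632 places, with 560 solitary sites, the median distance to the next 10 hpf Rad21 peak was 28.3 kb. It was 31.1 kb over the places in between, with 3862 sites, and 32.9 kb over the last 6391 places, from 11685 on, with 4101 sites. In the same order the median distance to a 4.5 hpf Rad21 peak was 53.4, 62.0 and 69.9 kb, and the mean number of other 10 hpf Rad21 peaks within 100 kb was 3.47, 3.10 and 2.91. A CTCF peak lay within 10 kb of 16.6% (13.6 to 20.0) of the sites at the start and 15.5% (14.4 to 16.6) of those at the end. A 4.5 hpf Rad21 peak lay within 10 kb of 10.0% (7.64 to 12.8) and 6.95% (6.19 to 7.77) in the same order, and none of these differences was tested.

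Standing alone at 10 kb seldom meant lying in an empty part of the chromosome. The median distance from a solitary site to the nearest other 10 hpf Rad21 peak was 31.7 kb (quartiles 18.8 and 57.3), with 28.1% under 20 kb and 69.9% under 50 kb. On the farther side the next Rad21 peak was a median of 89.6 kb away (quartiles 51.2 and 167). Within 100 kb of a solitary site lay a mean of 3.03 other 10 hpf Rad21 peaks, against 3.60 for all 10 hpf Rad21 peaks and 4.87 for the clustered new sites, numbers that the 10 kb condition lowers in the first set and raises in the last. The same count for CTCF was 2.15 for solitary sites, 2.23 for all peaks that overlap no CTCF peak and 2.33 for clustered new sites. No Rad21 peak of 4.5 or 10 hpf and no CTCF peak lay within 100 kb of 159 solitary sites, or 1.87%.

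The most isolated solitary sites lay on chromosomes 4, 12, 7 and 3. The nearest other 10 hpf Rad21 peak was 1209 kb from chr4:36108506-36108694 and 1172 kb from chr4:37333379-37333567. It was 1170 kb from chr12:42165975-42166163, 1115 kb from chr7:3037309-3037497 and 1012 kb from chr3:4056650-4056838. These 5 sites stood at places 11473 to 17105 of the list. The sites farthest from CTCF were chr4:44771385-44771573 at 1229 kb, chr7:3037309-3037497 at 1193 kb, chr4:37333379-37333567 at 937 kb, chr4:60995918-60996106 at 874 kb and chr4:46107695-46107883 at 873 kb. So 4 of those 5 lay on chromosome 4, all beyond 24 Mb.

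The nearest 10 hpf Rad21 peak was another solitary site for 4904 of them, or 57.5%, while solitary sites made up 47.2% of the list. When peaks within 10 kb of each other were joined, the list came to 14898 separate units, of which solitary sites were 57.2%. The nearest peak was a new one with CTCF for 14.7%, a peak already listed at 4.5 hpf without CTCF for 11.7%, and such a peak with CTCF for 4.12%. These classes held 14.7%, 12.2% and 4.11% of the list. For 11.9% the nearest peak was a clustered new site, a class that held 21.9% of the list. Among the 8504 solitary sites with a Rad21 peak on either side, 34.0% had a solitary site on both sides and 18.1% on neither. Strings of consecutive solitary sites numbered 3590, of which 1548 held a single site and 425 held 5 or more. The longest held 14. Counts of neighbours and strings were not compared with those of a random order of the 14898 units. They therefore show no grouping of solitary sites.

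**Figure D2:**
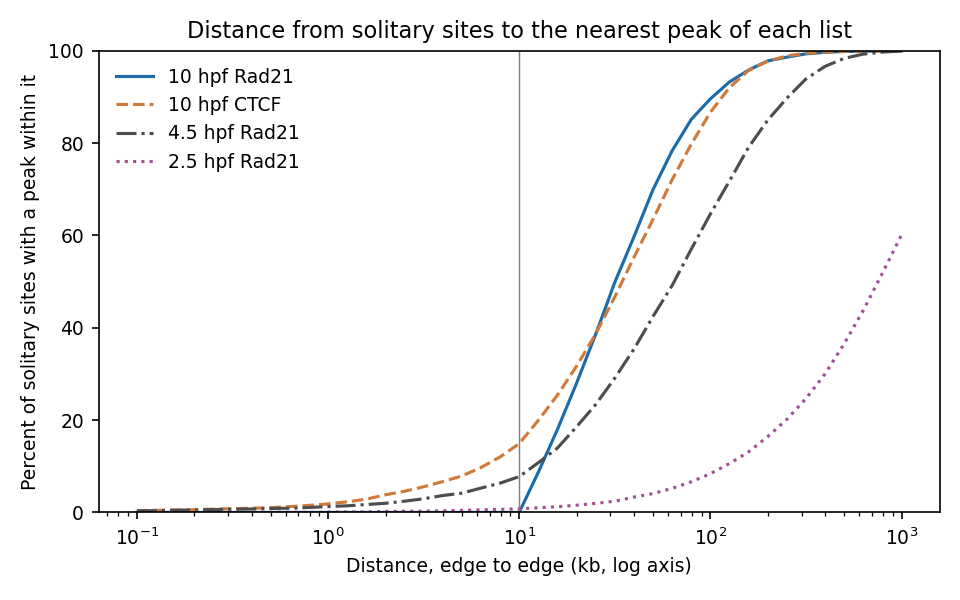
Percent of the 8523 solitary sites (y axis) with a peak of each list within a given distance (x axis, kb, log axis), edge to edge. The curve for 10 hpf Rad21 starts at the 10 kb limit (grey line) by construction, and at that distance 14.9% of the sites had a CTCF peak, 7.76% a 4.5 hpf Rad21 peak and 0.798% a 2.5 hpf Rad21 peak.

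A minority of solitary sites had CTCF nearby. A CTCF peak was listed within 10 kb of 1270 solitary sites, or 14.9% (14.2 to 15.7). Among all 14684 Rad21 peaks that overlap no CTCF peak the share was 19.7%, among clustered new sites 28.4%, and 18.9% of the length of the chromosomes lay within 10 kb of a CTCF peak. The selection itself lowers the share, because a Rad21 peak that overlaps a CTCF peak cannot lie within 10 kb of a solitary site. The median distance to CTCF was 34.8 kb (quartiles 15.6 and 68.3), against 28.5 kb for clustered new sites, and 13.4% of solitary sites had no CTCF peak centred within 100 kb. That share was 12.3% among the 14684 peaks that overlap no CTCF peak. Within 100 kb edge to edge CTCF was listed for 86.7% of solitary sites and 87.8% of those 14684 peaks, next to 83.0% of the chromosome length. At this distance the order seen at 10 kb held against those peaks and not against the chromosome length. These differences were not tested.

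Consecutive CTCF peaks enclosed solitary sites about in proportion to the length between them, except in the shortest intervals. Of the 14054 intervals between consecutive CTCF peaks, 36.2% held a solitary site, 3119 held 1 and 1969 held 2 or more. Intervals with none had a median length of 36.5 kb, those with 1 of 92.0 kb and those with 2 or more of 188 kb. The density was 6.34 solitary sites per Mb in the 6508 intervals of 20 to 100 kb and 6.32 per Mb in the 4582 longer ones, and it was 4.54 per Mb in the 2964 intervals under 20 kb. The definition lowers the last value, since a Rad21 peak at a bounding CTCF peak bars solitary sites within 10 kb. How much of the shortfall this makes up was not tested. An interval of 705 kb held the largest number, 13.

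Some solitary sites only just missed CTCF. In 33 of them the CTCF peak began less than 100 bp away, in 18 it was 100 to 199 bp away, and from 1 to 10 kb the mean was 12.4 sites per 100 bp of distance. The nearest of these were chr23:22876852-22877040 at 1 bp, chr8:10539428-10539616 at 3 bp and chr21:5305589-5305777 at 4 bp, at places 15111, 11619 and 12290. The 33 sites had a median place of 12684 in the 10 hpf Rad21 list, nearer its end than the 11366 of all solitary sites, and their CTCF peaks one of 8328 among 14079. The quartiles of all solitary sites were 6873 and 14955, and the difference in place was not tested. Peaks of the lists have fixed widths, 189 bp for Rad21 at 10 hpf and 165 bp for CTCF. Sites a few bases apart are thus set apart by the 1 bp overlap that the definition uses.

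Near misses were found for the earlier Rad21 list too. A 4.5 hpf Rad21 peak began less than 100 bp from 29 solitary sites and 100 to 199 bp from 16, while from 1 to 10 kb the mean was 6.13 sites per 100 bp. Nearest were chr2:21602257-21602445 at 1 bp, place 3337, chr4:43972454-43972642 at 5 bp, place 7323, and chr23:38962800-38962988 at 13 bp, place 4743. The 29 sites had a median place of 8882 in the 10 hpf list, nearer its top than that of all solitary sites, where the sites close to CTCF were nearer its end. Both medians rest on few sites and have no interval, and their difference was not tested. Both a CTCF peak and a 4.5 hpf Rad21 peak lay within 500 bp of 2 solitary sites. The sites within 200 bp of each list were 0.598% and 0.540% of the whole, so near misses made up a small part of it.

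**Figure D3:**
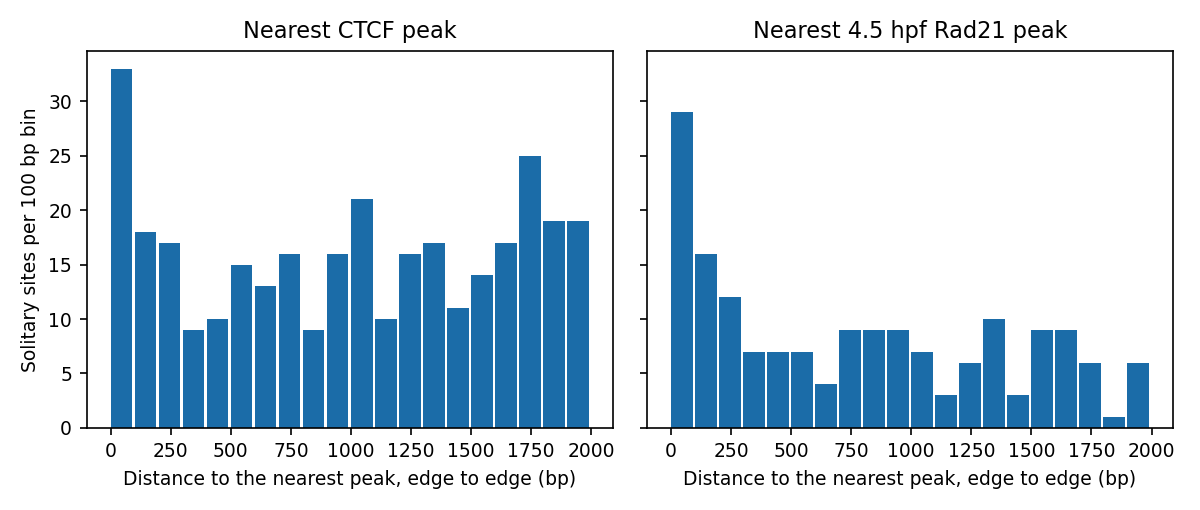
Number of solitary sites (y axis) by distance to the nearest CTCF peak (left) and the nearest 4.5 hpf Rad21 peak (right), in bins of 100 bp (x axis, bp, edge to edge). The first bin holds 33 and 29 sites, more than any other bin shown.

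Some solitary sites had a Rad21 peak of 4.5 hpf nearby, near misses included. One lay within 10 kb of 661, or 7.76% (7.20 to 8.34), while 13.3% of all 10 hpf Rad21 peaks that overlap no 4.5 hpf peak and 25.3% of clustered new sites had one, and 9.79% of the length of the chromosomes lay that close to one. The selection lowers the share at 10 kb, since a 4.5 hpf site still listed at 10 hpf is itself a Rad21 neighbour. Within 100 kb the order against the chromosome length was the opposite, with 64.6% of solitary sites and 57.6% of the length. Among the 15129 peaks that overlap no 4.5 hpf peak, 68.0% had one within 100 kb. The median distance was 64.5 kb (quartiles 26.8 and 139.8). For clustered new sites it was 41.2 kb. No 4.5 hpf Rad21 peak had its centre within 100 kb of 35.4% of solitary sites, against 32.0% of the 15129 peaks that overlap none. With CTCF and 4.5 hpf Rad21 counted jointly, 6708 solitary sites, or 78.7%, had neither within 10 kb, against 71.1% of the 12480 peaks that overlap neither (solitary sites included), 54.8% of clustered new sites and 49.1% of all 10 hpf Rad21 peaks. Part of this difference is fixed by the definition.

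Rad21 peaks of 2.5 hpf, of which 2011 were listed, were as far from solitary sites as from 10 hpf Rad21 peaks in general. The median distance to the nearest one was 752 kb for solitary sites and 754 kb for all 10 hpf Rad21 peaks. Of the 8523 sites, 1 overlapped such a peak, 0.0117% (0.000297 to 0.0654), where 0.0498% of all 10 hpf Rad21 peaks did. It was chr11:3922447-3922635, at place 14245, which lay wholly inside the 2.5 hpf peak chr11:3922037-3923047, with a fold enrichment of 53.6 and a pileup of 100 tags, both the authors' values. Within 10 kb of a 2.5 hpf peak lay 68 solitary sites, or 0.798% (0.620 to 1.01), beside 0.775% of all 10 hpf Rad21 peaks and 1.44% of the chromosome length. The share of solitary sites was thus close to that of the whole list. The 2.5 hpf list was made with another peak caller and from libraries of another read length, 125 against 50 bases at the later stages. Of its 15362000 Rad21 tags 5245276 were kept, with a redundant rate of 0.66 against 0.1 in its input. The stage and the method therefore cannot be told apart.

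Solitary sites were spread over all chromosomes at similar densities. The mean was 6.28 per Mb, and 24 of 25 chromosomes lay between 5.39 per Mb, on chromosome 3, and 7.20 per Mb, on chromosome 23. Chromosome 4 stood below them at 4.36 per Mb, 0.694 times the density of all chromosomes. It held 271 solitary sites, or 3.18% of them, next to 3.19% of all 10 hpf Rad21 peaks, so solitary sites were no scarcer there than other Rad21 peaks. The share of a chromosome's Rad21 peaks that were solitary sites went from 41.5% on chromosome 3 to 52.2% on chromosome 9.

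On chromosome 4 the shortfall lay on the long arm, which is rich in repeats in zebrafish and to which short reads are hard to assign. Up to 24 Mb the chromosome held 191 solitary sites, 7.96 per Mb, and beyond it 80, or 2.1 per Mb. CTCF peaks fell from 13.3 to 2.91 per Mb across the same limit. Of the 140 Rad21 peaks beyond 24 Mb, 57.1% were solitary sites, against 43.8% of the 436 before it. The median distance to the next Rad21 peak was 87.8 kb beyond the limit and 32.7 kb before it. How many reads could be assigned there was not tested.

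**Figure D4:**
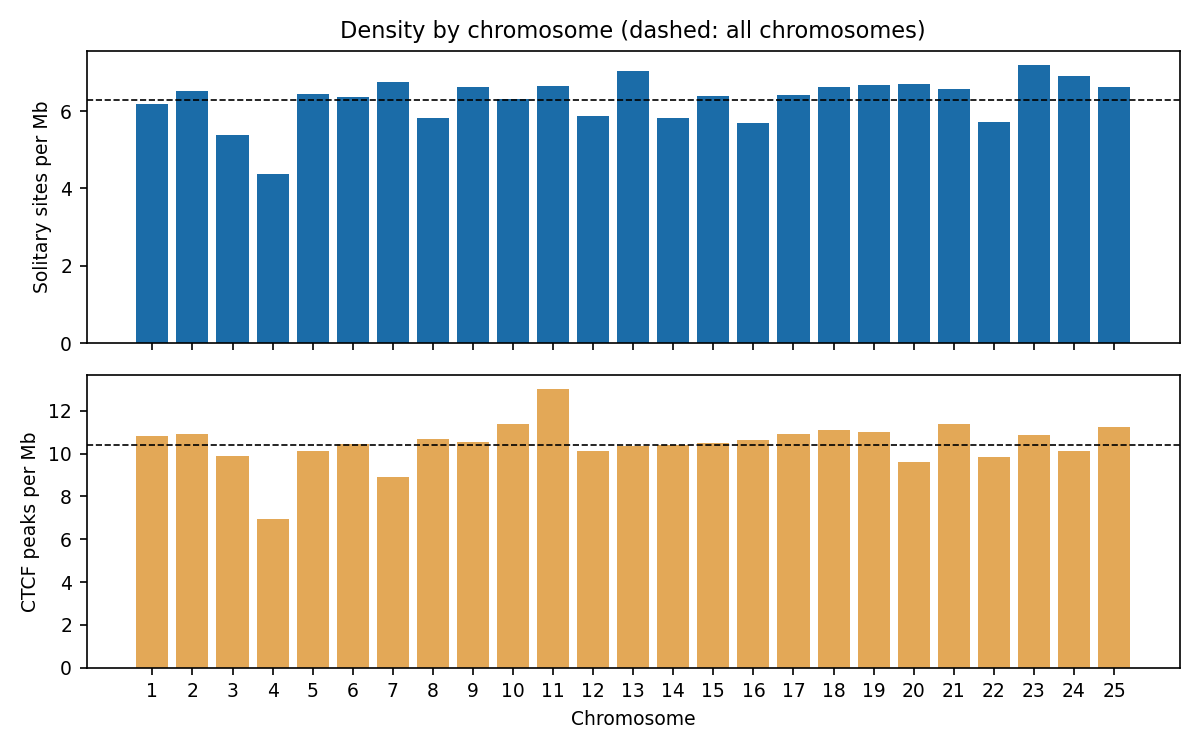
Solitary sites per Mb (top) and CTCF peaks per Mb (bottom) on each chromosome, with the density over all chromosomes as a dashed line. Chromosome 4, at 4.36 solitary sites and 6.94 CTCF peaks per Mb, is the lowest in both panels.

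Along the chromosomes solitary sites were denser in the middle than at the ends. When each chromosome was cut into 10 equal parts and all chromosomes were combined, the 2 central parts held 25.3% of the solitary sites, and the 2 outermost parts held 16.1%. For clustered new sites the figures were 28.7% and 14.0%. CTCF peaks did not follow this course, with 19.7% in the central and 22.2% in the outermost parts. The Rad21 peaks already listed at 4.5 hpf and without CTCF had 24.7% and 21.3%. In the last megabase at either end of a chromosome lay 3.65% (3.26 to 4.07) of the solitary sites and 4.54% of all 10 hpf Rad21 peaks. The share was 3.26% for clustered new sites and 5.66% for new sites with CTCF. For peaks already listed at 4.5 hpf it was 7.30% without CTCF and 9.43% with it. These shares compare the classes with each other and were not set against the chromosome length, so they show no depletion of solitary sites there.

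**Figure D5:**
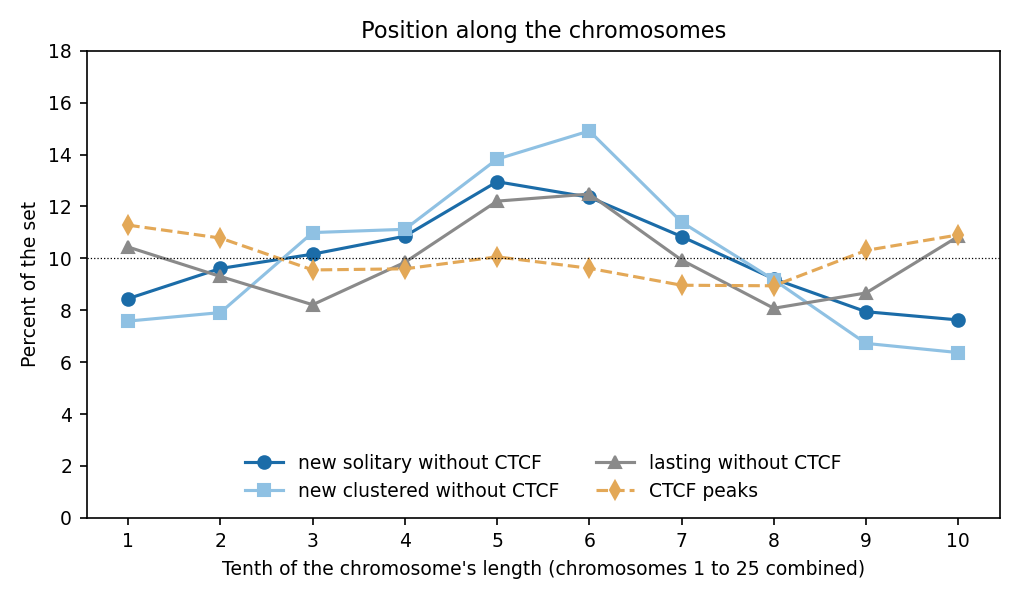
Percent of each set (y axis) in each of 10 equal parts of the chromosome length (x axis), chromosomes 1 to 25 combined, with an even spread as a dotted line. Solitary sites rise to 13.0% in the fifth part and fall to 7.63% in the last, while CTCF peaks stay between 8.94% and 11.3%.

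In windows of 1 Mb the solitary sites varied less than the clustered ones. The 1344 full windows held a mean of 6.28 and a median of 6 solitary sites (quartiles 4 and 8), and 27 windows held none, 8 of them on chromosome 4. The variance over the mean was 1.74 for solitary sites, 1.75 for CTCF peaks and 3.17 for clustered new sites, whose definition requires a close neighbour. The most solitary sites, 20, lay on chromosome 11 from 22 Mb, with 10 CTCF peaks and 3 clustered new sites in the same window. Next were chromosome 13 from 25 Mb and chromosome 23 from 28 Mb, with 19 each. The window on chromosome 13 held 9 CTCF peaks and that on chromosome 23 held 5.

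Windows with more solitary sites held more of the clustered new sites, while CTCF peaks were most numerous in windows with 7 to 9. Across the 1344 windows, which share the assembly's gaps and repeats, the number of solitary sites had a Pearson correlation of 0.37 (Spearman 0.39) with clustered new sites, 0.31 (0.35) with 4.5 hpf Rad21 peaks and 0.16 (0.17) with CTCF peaks. The mean number of CTCF peaks was 5 in the 27 windows with no solitary site, 8.60 in the 247 windows with 1 to 3, 10.7 in the 478 with 4 to 6, 11.4 in the 384 with 7 to 9 and 10.3 in the 208 with 10 or more. Clustered new sites averaged 0.296, 1.55, 2.49, 3.44 and 4.94 in the same windows. Mean numbers of 2.5 hpf Rad21 peaks were 2.96, 3.04, 1.20, 1.02 and 0.630 in the same order. Chromosome 4 was included, with 8 of the 27 windows that held no solitary site. On it the median distance from a solitary site to a 2.5 hpf peak was 279 kb beyond 24 Mb and 6581 kb before. These means were not computed without chromosome 4.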

How the data were processed

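Reads were aligned with Bowtie2 2.2.1 to Zv9, per the submitters' processing notes. Per the file headers, the authors called the 2 later Rad21 lists and the CTCF list with HOMER findPeaks, each from a single tag directory against a single input directory, at a false discovery rate of 0.001 and with 4-fold enrichment over input and over the surrounding 10000 bp. That local filter works against peaks beside strong signal. Whether a directory pools both libraries is not stated. The deposited score is 1 for every peak. Rad21 peaks were centred on the highest pile-up, per the file headers, and the CTCF header does not say so. The 2.5 hpf list was called with MACS2 from both libraries pooled, and its fold enrichment ratio and pileup signal were used as deposited by the authors.

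The 1 mitochondrial peak was left out, and all peaks of chromosomes 1 to 25 were kept. Starts were made 1-based, distances run edge to edge, and chromosome lengths are the largest end over all lists. Percentages have exact (Clopper-Pearson) 95% intervals from scipy 1.17.1. The rule that picks the solitary sites, at its main settings, was tested on simulated peaks. The split of the remaining peaks into the other classes was not. Sites, lists and settings were chosen with earlier results of these data known. Named sites follow a fixed rule: the first 12 and last 3 in the list, the most isolated, the farthest from and nearest to CTCF, the nearest to 4.5 hpf peaks, those overlapping 2.5 hpf peaks, those at the 10 kb limit, and the 3 windows with most sites. Genes and sequences were not used here, since no genome of this build was used.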

Additional observations from a re-analysis of the deposited data

How the results depend on the processing

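Each list is a single call per stage and antibody, so leaving out a replicate could not be done. No paired analysis was possible because no value is given per library. Of 70 recomputed results 47 stayed inside the interval of the reported value, or within 1.5 times a reported count. The intervals cover counting error only, and the rule for counts is the wider. The counts at limits of 5 and 20 kb, 10233 and 6126, are thus among the 47. As shares of the list the same sites are among the other 23. Those 23 results follow. With only the first 50% of the 10 hpf Rad21 list, 3702 peaks were solitary sites (40.96% of them), at a median place of 5440.5 and a median of 51.6 kb from the next Rad21 peak, with 3.89% among the first 1000 peaks, 8.83% within 10 kb of a 4.5 hpf peak and 3.08% in the last megabase of a chromosome. Cutting the list in itself lowers the places, raises the share among the first 1000 and lengthens the distances between peaks. With only the first 50% of the CTCF and 4.5 hpf lists, the solitary share of the list was 50.6%, the median place 11178, and the shares near CTCF and near 4.5 hpf peaks 7.07% and 2.94%. A limit of 5 kb to the next Rad21 peak gave 56.6% of the list and a median distance of 25.8 kb. At that limit 17.0% lay near CTCF and 10.5% near 4.5 hpf peaks. A limit of 20 kb gave 33.9% and 43.6 kb. At 20 kb the solitary sites numbered 6126, fewer than 50% of the 12480 peaks at neither list. The clustered new sites were then the largest class. Asking for an overlap of at least 50% of the peak gave 48.96% of the list, with 16.8% near CTCF and 9.14% near 4.5 hpf peaks. Counting peaks within 500 bp as shared gave 46.3%, 14.0% and 6.98%. Leaving out chromosome 4 moved none of the results. The place at the middle of a run was added after the data were seen. The depth of single libraries is not known.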
